A study of Drosophila melanogaster with 2 samples.

Results

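The pipsqueak-domain genes are danr, its paralog dan, cag, psq, bab1, bab2, rib, lov and Eip93F, and these 9 members of 13968 protein-coding genes were chosen by name, for a DNA-binding domain of the pipsqueak type. The peak lists come from whole Drosophila melanogaster embryos of strain danr-GFP collected 0 to 24 h after egg laying, which carried an insertion that expresses danr as an eGFP fusion. The fusion protein was immunoprecipitated with an antibody against GFP, and 2 biological replicates formed the only group. The labels name no second genotype, stage or treatment, and they do not say which promoter drives the fusion or whether the untagged danr gene was still present. Because the fusion construct itself carries danr sequence, the signal measured at danr may be raised and is not a measure of binding alone. The 8 peak lists are a ranked list of any score and a thresholded one for each replicate, and 4 lists that draw on both, of which the thresholded list of the series is used unless another is named. Each thresholded list was made with 1 further input whose content is not described in the sources used here, and the counts of regions rest on these lists. Control libraries named in the labels were not analysed here.

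The pipsqueak domain is a helix-turn-helix DNA-binding domain related to that of the centromere protein CENP-B and of some transposases. In danr, dan and cag it belongs to the CENP-B-like branch of the family, psq, bab1, bab2, rib and lov join it to a BTB domain through which such proteins pair, and Eip93F carries it without a BTB domain. Danr and Dan are nuclear proteins that promote distal antenna identity and act in eye development, and Dan also acts in neuroblasts. Psq, the founding member, binds GAGAG sites, as does the GAGA factor encoded by Trl.

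In the thresholded list of the series, 8 of the 9 members had at least 1 region with its summit between 5 kb upstream of the gene start and the gene end, and lov had none. Together they held 13 regions of 2653, whose scores started at 830, equal to an irreproducible discovery rate (IDR) of 0.010. The sources used here do not say which sets of reads were compared to obtain the IDR of this list, and a low IDR in it went with unlike ranks in the replicates at Eip93F, bab2 and the second bab1 region, which all had the top score of 1000. Most of these regions were weak. Their signals, the authors' enrichment values, ran from 35.4 to 129.9 with a median of 62.8, against 82.8 over all regions, and the median rank was 1965. The 3 regions at or above the list's median signal belonged to cag and rib, and these were also the 3 found in the thresholded lists of both replicates.

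The sequences at the members on 3R and 3L are shown because danr and dan are the tagged gene and its paralog, and because bab1, bab2 and Eip93F carried regions deep in their introns. All are from the dm6 plus strand, 5′ to 3′. For danr the 200 bases before its start site are given, chr3R:25137872-25138071, and for the others 100 bp either side of the summit, dan at chr3R:25180678-25180878, bab1 at chr3L:1097046-1097246 and chr3L:1086365-1086565, bab2 at chr3L:1166370-1166570 and Eip93F at chr3R:21993040-21993240. Capitals mark GAGAG and ACAAT, the Sox core, on either strand, with overlapping matches joined. These motifs were picked for marking after the values were seen.
danr, before the start site: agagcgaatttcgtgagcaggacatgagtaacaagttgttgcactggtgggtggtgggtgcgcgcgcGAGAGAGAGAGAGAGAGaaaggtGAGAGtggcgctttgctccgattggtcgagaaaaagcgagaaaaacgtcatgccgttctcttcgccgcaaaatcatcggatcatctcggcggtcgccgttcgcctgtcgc
dan, upstream region: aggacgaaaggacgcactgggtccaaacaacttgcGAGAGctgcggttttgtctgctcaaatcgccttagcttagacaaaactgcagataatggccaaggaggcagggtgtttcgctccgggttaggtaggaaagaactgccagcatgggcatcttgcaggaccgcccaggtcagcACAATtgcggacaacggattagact
bab1, first intronic region: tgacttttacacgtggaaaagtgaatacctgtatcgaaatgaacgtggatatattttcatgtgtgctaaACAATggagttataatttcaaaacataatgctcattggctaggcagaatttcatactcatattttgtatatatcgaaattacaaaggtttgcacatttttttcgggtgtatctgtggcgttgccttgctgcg
bab1, second intronic region: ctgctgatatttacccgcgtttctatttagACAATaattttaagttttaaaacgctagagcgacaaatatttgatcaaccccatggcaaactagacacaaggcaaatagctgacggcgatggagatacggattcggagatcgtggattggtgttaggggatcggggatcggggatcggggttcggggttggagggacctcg
bab2, intronic region: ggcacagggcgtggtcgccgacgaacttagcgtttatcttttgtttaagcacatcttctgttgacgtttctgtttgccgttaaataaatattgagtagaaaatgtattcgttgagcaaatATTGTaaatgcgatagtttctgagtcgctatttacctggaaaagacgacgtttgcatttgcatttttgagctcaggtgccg
Eip93F, intronic region: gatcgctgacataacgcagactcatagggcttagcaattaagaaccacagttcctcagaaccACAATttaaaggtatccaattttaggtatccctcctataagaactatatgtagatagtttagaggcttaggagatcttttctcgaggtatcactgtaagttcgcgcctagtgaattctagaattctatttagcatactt

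The stretch before danr held 8 GAGAG matches, most of them in 1 unbroken repeat. Of 13968 protein-coding genes, 122, or 0.873%, had as many or more in the 200 bases before the gene start, and 22.1% had at least 1. Eip93F had 6 matches there (as many or more in 1.50% of genes), bab2 had 3 (4.58%), and dan and lov had 1 each, while cag, psq, bab1 and rib had none. Within 100 bp of the summit, 2 of the 13 member regions held GAGAG. These were the dan region and the first rib region, and the summit window at danr held none. The 8 matches before danr nevertheless lay inside the called danr region, which started at 25137930. Over all 2632 regions on the 7 chromosomes analysed the share was 21.5%. ACAAT was in 10 of the 13, against 48.9% of all regions. In narrower windows of 50 bp either side, TATAAA was in 1 of 13 against 23.2%, AAAAAA in 1 against 28.5%, GAGAG in 1 against 9.08% and ACAAT in 7 against 30.9%. The homeodomain core TAATTA had no match at the member summits and was in 9.50% of all regions. The E-box CACGTG (0.570% of all regions), the early zygotic motif CAGGTA (2.39%) and the E-box CATATG (4.41%) had none at the members either. Both strands were searched for each motif. A match is a description of these letters and not a site. Whether base content bears on these shares was not tested.

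**Figure D1:**
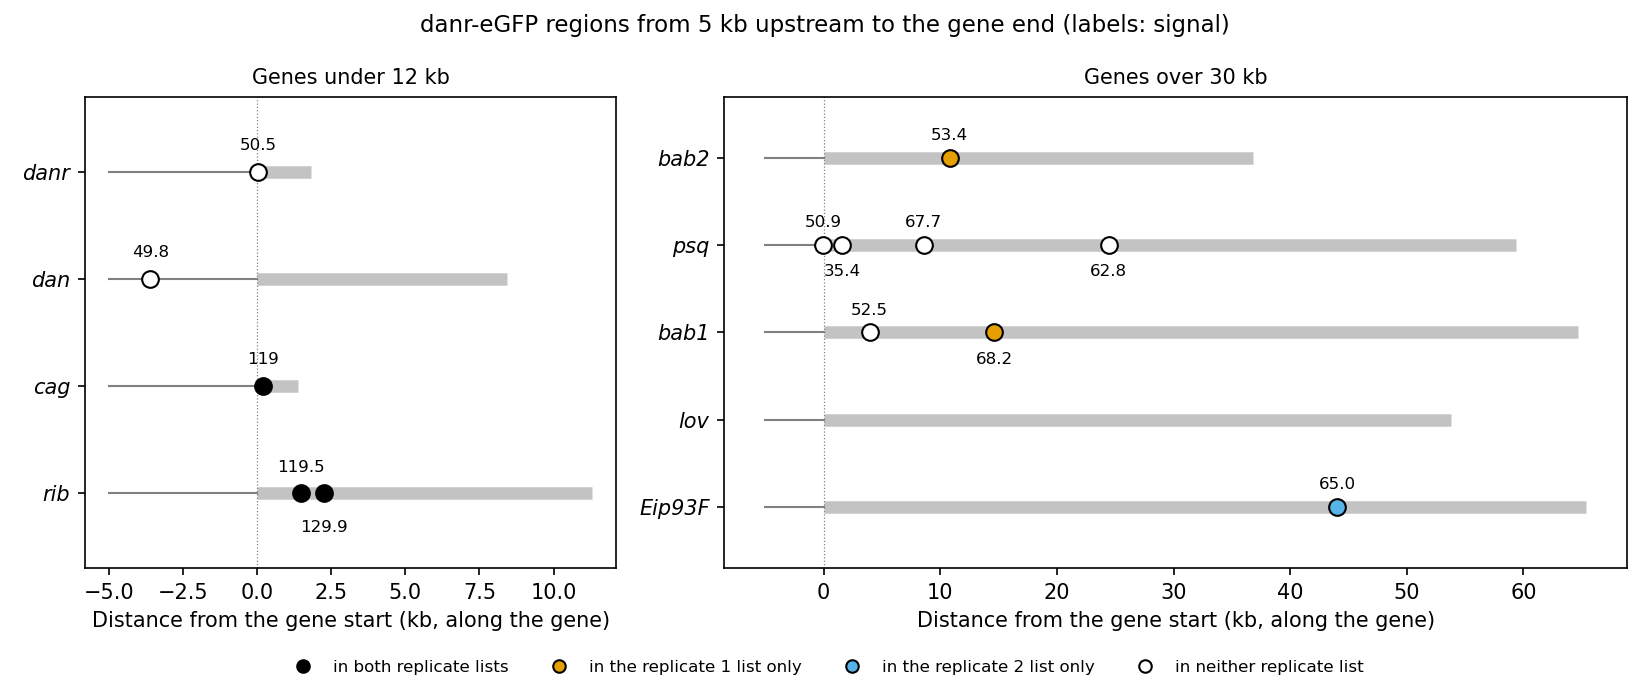
Positions of the 13 regions along the 9 members, in kb from the gene start, with 5 kb of upstream sequence as a thin line, the gene as a thick bar and the signal of each region as a label. Fill shows in which replicate's thresholded list the region was found. The filled black points, in both lists, are at cag and rib, and lov has no point.

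Of the CENP-B-like members, cag had a strong region and danr and dan had weak ones. The danr region (FBgn0039283, 3R) ran from 25137930 to 25138273 with its summit in the 5′ UTR, 30 bp downstream of the only annotated start site. Its signal was 50.5, which is rank 2499 of 2653, and its score of 842 equals an IDR of 0.00938, just inside the limit. In the second ranked list of the series the same peak had a score of 220, equal to an IDR of 0.295, which is outside it. In that list the strongest peaks of dan, bab1, bab2 and Eip93F were also outside it, with IDRs of 0.0272, 0.0194, 0.223 and 0.305. Those of cag, psq and rib were inside it. The best peak overlapping the danr region had a signal of 34.8 in replicate 1, at rank 2033 of 73075 peaks, and of 16.1 in replicate 2, at rank 18346 of 99556. Replicate 2 had a stronger peak in the danr window, with a signal of 19.7 from 25134008 to 25134327. The peak at the start of the tagged gene was thus stronger in replicate 1, and in neither replicate did it pass the limit.

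The region counted for dan (FBgn0039286, 3R) lay 3605 bp upstream of its first start site, from 25180606 to 25180949, inside an intron of lobo. Its signal was 49.8, rank 2520, with 21.0 in replicate 1 and 26.4 in replicate 2. In both replicates this was the strongest ranked peak of the dan window, yet neither passed the limit. The 44.5 kb between danr and dan held 4 regions with signals of 67.7, 47.8, 84.5 and 49.8, the last being the one counted for dan. The other 3 were found in 1 replicate's list each, and the one at 84.5 was also in the conservative list. The region at 67.7 had 48.0 in replicate 1 and 18.7 in replicate 2, the one at 47.8 had 13.6 and 33.1, and the one at 84.5 had 27.6 and 59.6. This interval was examined after its values were seen. The windows of all protein-coding genes held 0.270 regions per 10 kb, but like intervals between genes were not counted.

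For cag (FBgn0017414), a short gene on 2R, the region ran from 10894041 to 10894384 in the 5′ UTR, between the 2 annotated start sites and 98 bp from the nearer one. Its signal was 119, rank 742. It was 60.9 in replicate 1, at rank 789, and 58.1 in replicate 2, at rank 847, so the replicates differed by a ratio of 1.05 and both gave the top score of 1000. This was the only member whose start site carried a region in the conservative list.

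Among the BTB members, rib had the highest signals. This gene (FBgn0003254, 2R) is required in epithelial morphogenesis of the trachea and salivary gland. Its regions lay 1474 and 2269 bp downstream of the first start site, in an intron, from 19271380 to 19271723 with a signal of 119.5 and from 19272175 to 19272518 with 129.9. The first had 53.8 in replicate 1 and 67.2 in replicate 2, and the second 58.9 and 70.6. All 4 replicate peaks had a score of 1000, and both regions were in the conservative list.

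The 4 regions at psq (FBgn0263102, 2R) lay between the gene start and an intron 24426 bp into it and were all below the median signal. The region nearest to a start site, from 10557657 to 10558000, had its summit 59 bp upstream of the first one and a signal of 50.9, with 24.4 in replicate 1 and 25.3 in replicate 2. The intronic regions followed at 1563, 8566 and 24426 bp from the gene start with signals of 35.4, 67.7 and 62.8. The replicate 1 signals of these 3 were 25.9, 23.9 and 29.6, and those of replicate 2 were 19.6, 42.6 and 32.2. None of the 4 was in either replicate's thresholded list, although the last 2 were in the conservative list, which is also drawn from both replicates. Of the 382 genes with windows of 50 kb and over, 9.95% had 4 or more regions.

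The paralogs bab1 and bab2, which pattern legs, ovary and abdominal pigmentation, had only intronic regions, and these had higher signals in replicate 1. At bab1 (FBgn0004870, 3L) they lay 3943 bp from the start site, from 1096974 to 1097317 with a signal of 52.5, and 14624 bp from it, from 1086293 to 1086636 with 68.2. The first had 38.1 in replicate 1 and 13.4 in replicate 2, and the second 42.9 and 21.3. At bab2 (FBgn0025525, 3L) the region lay 10806 bp from the start site, from 1166298 to 1166641, with a signal of 53.4. The best overlapping peak had 40.3 in replicate 1 and 16.9 in replicate 2. In replicate 2 the strongest peaks of these windows were elsewhere, at 31.7 for bab1 and 27.6 for bab2. The 39.3 kb between the paralogs held no region and 44 ranked peaks of any score, and like intervals elsewhere were not counted.

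At lov (FBgn0266129, 2R), a BTB gene whose mutants have behavioural defects, no region was found in any of the thresholded lists. Its window of 58.8 kb held 66 ranked peaks in the series, the strongest with a signal of 32.7, rank 10315 and a score of 155, which equals an IDR of 0.423. The strongest were 21.0 in replicate 1 and 19.1 in replicate 2, from different places. The absence of a region says only that none was called at this depth, which is unknown. Of genes with windows of 50 kb and over, 174 of 382 also had none.

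Eip93F (FBgn0264490, 3R), the ecdysone-induced regulator of adult fate also called E93, had 1 region, 44026 bp into the gene and 20761 bp from the nearer start site, from 21992968 to 21993311. Its signal was 65.0, rank 1883. Here the signal was higher in replicate 2, at 49.8 against 16.4 in replicate 1, and only the replicate 2 list held the region.

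**Figure D2:**
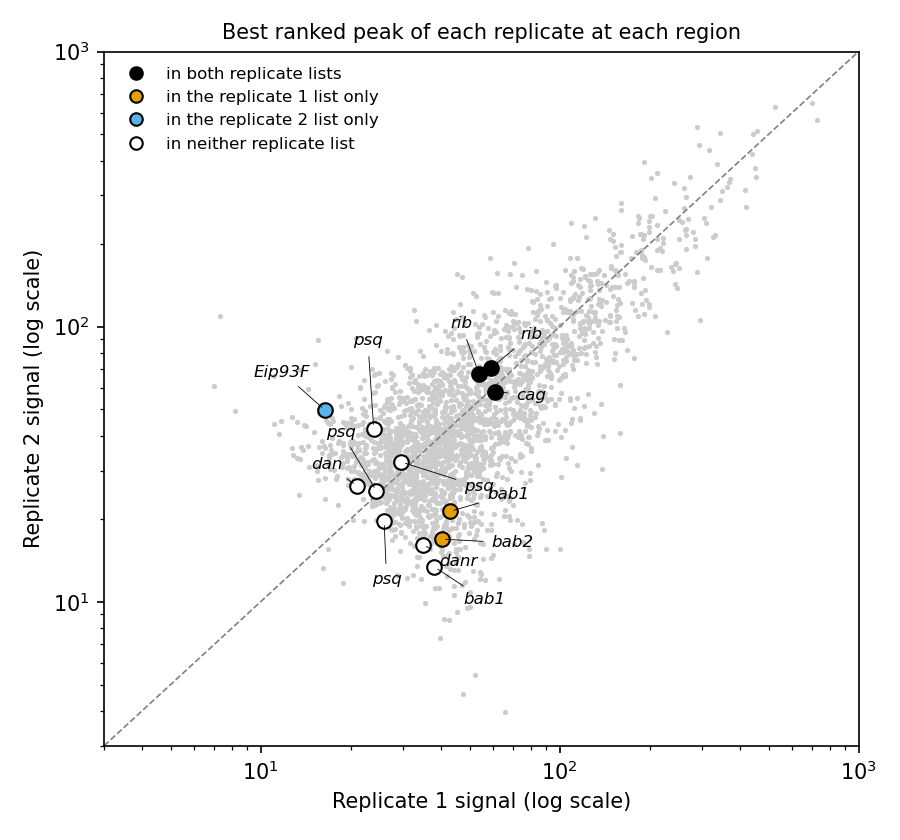
Signal of the best ranked peak in replicate 1 (x axis) and replicate 2 (y axis) at each region, both on log scales, with the 2484 regions that have a peak in each in grey, the member regions as larger points and the dashed line at equal signal. The cag and rib points lie near the line, the danr, bab1 and bab2 points below it and the Eip93F point above it.

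At several members the replicates differed. Over the 2484 regions with a ranked peak in both replicates, the ratio of replicate 1 to replicate 2 signal had a median of 1.06 and ran from 0.483 at the 5th to 2.45 at the 95th percentile. Of the 13 member regions, 11 were within this range, and bab1's first region, at 2.85, and Eip93F, at 0.328, were outside it. The danr region was at 2.16, the second bab1 region at 2.02 and bab2 at 2.39. All 13 had a ranked peak of some score in each replicate, as did 94.4% of all regions. In the thresholded lists 3 of 13 were in both replicates and 7 in neither, against 40.2% and 25.2% of all regions, and 5 of 13 were in the conservative list against 75.0%. For cag, dan and rib the strongest ranked peak of the window overlapped between replicates, which was 3 of 9 members and 35.4% of 12311 protein-coding genes with a peak in each.

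**Figure D3:**
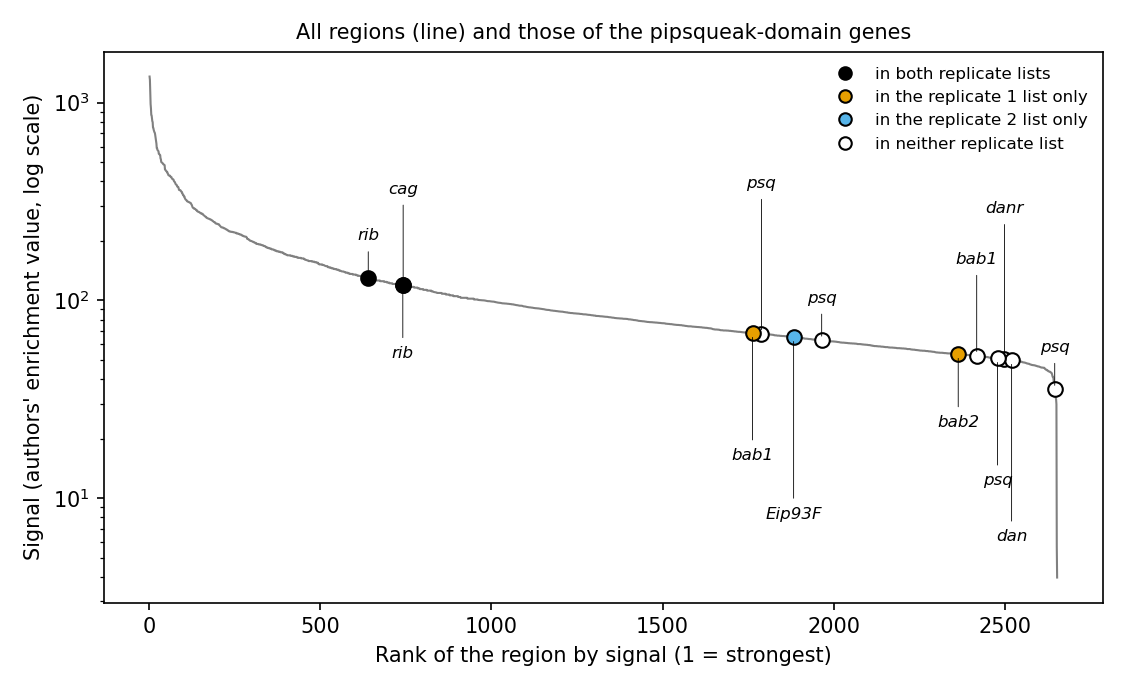
Signal (log scale) against rank for all regions as a line, with the 13 member regions marked by gene and by replicate list. The rib and cag points lie at ranks 640 to 742, and the others at rank 1763 or lower in the list.

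The counts have to be read against the background and the length of the genes. Of all protein-coding genes, 24.2% had a region in the same window, but the median window was 7.16 kb against 41.8 kb for the members. The share rose with window length, from 19.4% of genes under 10 kb, where both danr and cag had a region, to 33.7% between 10 and 20 kb, where dan and rib did, and 43.8% between 20 and 50 kb, where bab2 did. It was 54.5% from 50 kb, where psq, bab1 and Eip93F had a region and lov did not. Per 10 kb of window the members held 0.373 regions and all protein-coding genes 0.270, and over ranked peaks of any score in the series the values were 10.5 and 10.9. In the conservative list the order was the other way, with 0.144 regions per 10 kb in members and 0.215 in all genes, as it was in replicate 1 (0.144 against 0.171) and in replicate 2 (0.115 against 0.164).

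**Figure D4:**
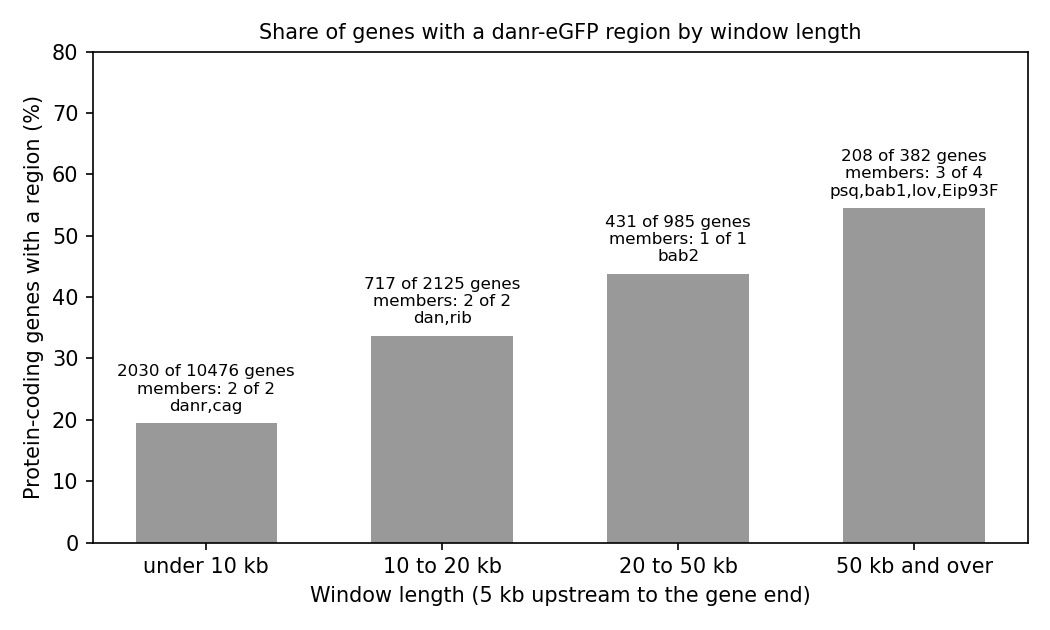
Share of protein-coding genes with at least 1 region from 5 kb upstream to the gene end, by window length, with the counts of genes and of members above each bar. The share rises from 19.4% to 54.5%.

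How many members had a region depended on the list. It was 3 in the conservative list, namely cag, psq and rib, where 20.1% of all protein-coding genes had one. In replicate 1 alone it was 4, namely cag, rib, bab1 and bab2, against 16.7%, and in replicate 2 alone 3, namely cag, rib and Eip93F, against 16.4%. Neither danr nor dan was among them. Summits no more than 1000 bp away from a start site belonged to danr, cag and psq, or 3 of 9, against 13.4% of all protein-coding genes. These shares were not adjusted for the number of annotated start sites, which was 1 at danr, 2 at cag and 5 at psq. In the conservative list and in each replicate alone the count was 1, and the share of all genes is not given for those lists.

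Introns held 10 of the 13 member summits and promoters 3. Over all regions the shares were 37.3% and 46.5%, but the window rule and the long genes of the family favour introns and leave little room for summits between genes, so nothing is read from this difference. The mean A+T content within 50 bp of the summit was 62.4% ± 11.2 (SD over 13 regions), against 66.8% ± 9.37 over all regions. Each SD is the spread of single regions and not the uncertainty of a mean, and the difference was not tested. In the 5 member regions of the conservative list the mean was 69.7%. The 66.8% is the mean over all regions of the thresholded list. That of the conservative list is not given, so whether the direction turns with the list cannot be said. A+T content over the 13 member regions ranged from 39.6% at danr to 78.2% at the first rib region, with 47.5% at dan and 74.3% at cag. The danr value was lower than at all but 1.14% of regions, and that of dan lower than at all but 3.80%. The regions found in both replicates had A+T contents of 71.3% to 78.2%, and those at the tagged gene and its paralog the lowest of the members. The first bab1 region, in neither replicate's thresholded list, had 72.3%, which is inside that range. Whether base content bears on the signal was not tested.

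Among related genes, those with a BTB domain but no pipsqueak domain had regions in 10 of 11 windows, with ttk the exception, at a median window of 31.6 kb and 0.405 regions per 10 kb. Because the list was chosen with earlier results of these data known, its share is a description of these genes only. Over all protein-coding genes 24.2% had a region, 43.8% of those with windows of 20 to 50 kb did, and the density was 0.270 per 10 kb. The strongest was at Trl, which encodes the GAGA factor, in an intron 1541 bp from a start site, with a signal of 706, rank 16, and 369 in replicate 1 and 336 in replicate 2. Cp190, an insulator protein gene, had 319.6 at 133 bp from its start site, and mod(mdg4), another insulator gene, had 205 at a summit that also lay in the 5′ UTR of pre-mod(mdg4)-E. All 3 were in both replicates' lists and all 3 exceeded the highest member signal of 129.9. The further pipsqueak-domain gene CG15812, also called pfk, had no region in its window of 7.03 kb.

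Of 19 genes of the distal antenna and eye, the setting in which dan and danr are best known, 5 had a region, or 26.3%, at a median window of 24.5 kb and 0.208 regions per 10 kb. This share is near the 24.2% of all protein-coding genes and below the 43.8% of genes with windows of 20 to 50 kb, and the density is below the 0.270 of all genes. They were hth, Dll, Antp, ct and Lim1, with strongest signals of 142, 134, 95.4, 78.8 and 64.8. At hth, a homeodomain gene of the proximal appendage, the strongest region was intronic with 85.1 in replicate 1 and 58.3 in replicate 2. At Dll, the distal appendage selector, it had 129.6 in replicate 1 and no overlapping ranked peak in replicate 2. At Antp, the homeotic gene that represses antennal fate, it had 38.0 and 58.3 and also lay in an intron of CG46458. The spineless gene ss, which specifies distal antenna, and the eye genes ey, toy, eya, so and dac had none.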

How the data were processed

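Chromatin immunoprecipitation followed by sequencing was analysed from 8 deposited peak lists. Their coordinates are dm6, per the labels. The signal is the authors' enrichment value per peak and was used to describe and rank peaks within a list. The score deposited by the authors is a transform of the irreproducible discovery rate (IDR). The peak caller and aligner are not named in the sources at hand. Reads per library are not part of the lists, so depth is unknown and no counting interval was computed.

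Rows sharing 1 bp or more were joined into regions, with the summit and signal of the strongest row. Regions were ranked over the whole list and placed on 7 chromosomes with the Ensembl release 115 gene set. Each window ran from 5 kb upstream of the gene start to the gene end. At each region the peak of highest signal overlapping it in each replicate's ranked list gave the replicate signals. Columns that pair peaks within the ranked lists (8 per list) were not used, since no header assigns them to a replicate. A summit was assigned to a promoter when within 500 bp of any annotated start site. Sequence came from the RefSeq genome of the same build. Counts by window were tested on planted summits (Python 3.11.15, pandas 2.3.3).

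The members and lists were chosen with earlier results of these data known. With 1 group of 2 replicates no test between conditions was possible, and no enrichment test was run, so shares are set beside those of all protein-coding genes. Named were all members, genes holding or nearest to their regions, and the 3 genes of highest signal from each list. Other list genes (ct, Lim1, ttk, ss, ey, toy, eya, so and dac) were named after their values were seen. Alternatives were the conservative list, each replicate alone, a stricter score or signal, other windows and distances, and no merging. The planned comparison of protein sequences was not run.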

Additional observations from a re-analysis of the deposited data

How the results depend on the processing

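With 10 kb upstream, 1 kb upstream or no merging, 8, 7 and 8 members had a region, with 15, 12 and 13 regions, against 8 members and 13 regions as reported. Only regions with a score of 1000 left 6 members and 8 regions. Regions at or above the median signal left 2 members (cag and rib) and 3 regions. The conservative list gave 3 members and 5 regions. Leaving out a replicate gave 3 to 4 members and 4 to 5 regions. Members with a summit near a start site fell from 3 to 1 in each of these 4 kinds of list (score of 1000, upper signals, conservative, single replicates), were 3 within 500 bp and 4 within 2000 bp. With ranked peaks of any score all 13 member regions were shared by both replicates. The cause was not tested. Mean A+T content at member summits went from 62.4% to 60.4% in wider windows and to 69.7% in the conservative list. The means over all regions under these 2 settings are not given, so the direction of the difference cannot be compared. In the related lists, 11 to 16 genes had a region under the alternatives, against 15. Shares of all protein-coding genes with a region are given above for the conservative list and each replicate alone. For the other alternatives, and for start sites in any of them, no share is given, so those counts have no background beside them. The planned comparison of protein sequences was not run. Depth is unknown, so missing regions are not shown to be unbound.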
